A study of Mus musculus with 8 samples.

Results

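Nuclear receptors are transcription factors, many of which are switched on by small fat-soluble ligands such as retinoids, thyroid hormone, sterols, bile acids and steroids. Many bind DNA as a dimer with a retinoid X receptor (RXR), and they recruit coactivators or corepressors that open or close chromatin at their target genes. In the liver they are known for adjusting lipid, bile acid, hormone and drug metabolism to nutrient supply. The genes described here are 34 such receptors and 4 of their coregulators. They were taken by symbol from the probes of the array that are not control spots. The 38 genes carried 72 probes, out of 28104 genes and 41174 probes on the array.

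Livers came from pregnant C57BL/6J mice, an inbred strain, and from their male fetuses on gestation day 18. The food restricted (FR) dams received 50% of the chow eaten by the control dams from gestation day 10 to 17, and the control dams ate freely. The groups were FR maternal liver (1 pool of 6 animals), control maternal liver (1 pool of 6), FR fetal liver (1 pool of 6 and 2 pools of 3) and control fetal liver (1 pool of 6 and 2 pools of 3). Restriction acted on the fetuses through the mother. Each FR pool was hybridised with its control pool on 2 Agilent 2-colour arrays with the dyes exchanged, so that 8 arrays gave 3 fetal pool pairs and 1 maternal pool pair. The labels do not say whether the fetal pools share mothers or animals, so p-values measure the spread between these pools, which may be partly technical. The maternal pool pair and the fetal pair of 6 shared slide 1, and both fetal pairs of 3 were on slide 2.

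A ratio here is log2 of FR over control, averaged over the 2 arrays of a dye exchange, and a level is the log2 normalised intensity of 1 diet. Median raw spot signals per array lay between 69.1 and 284 in Cy3 and between 122 and 310 in Cy5, over local backgrounds of 46 to 68, and were lowest on the maternal arrays. The ratios of the 8 arrays, turned to FR over control, correlated between 0.31 and 0.86 across probes. All 7 hepatocyte markers matched on the array were above background on every array of both tissues. Their summed level was 18.99 to 19.17 in FR fetal pools, against 19.32 to 19.57 in control fetal pools, and 19.22 in the FR maternal pool, against 19.51 in the control maternal pool. The maternal sums average 2 arrays on which the ratios of all these markers but Ttr differed in sign. Whole liver was measured, so fewer cells of a type and less RNA per cell cannot be told apart.

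Promoter sequence from RefSeq (GRCm38.p6) was matched for 34 of the 38 genes, as 55 windows of 250 bases before a transcription start. AGGTCA, the half-site that many of these receptors bind, lay on either strand in 8 of the 34 genes, against 15.8% of all genes. A gene was counted for a motif if any of its windows held it. All 27025 genes had 32851 windows, fewer per gene than the 55 of these 34, which favours matches in the 34. Of all windows 14.0% held AGGTCA. AAAGGTCA, a half-site bound by Nr4a factors that contains AGGTCA, lay in 2 of the 34, Rxra and Rxrg, against 1.55% of all genes. The direct repeat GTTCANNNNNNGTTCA, a retinoic acid response element whose hexamer half-sites are spaced by 5 bases, lay in 1 of the 34, Rarb, against 0.0777% of all genes. CACGTG, the E-box, lay in 3 of the 34, against 6.86% of all genes. No match was found for TCAAGGTCA, AGGTCANAGGTCA, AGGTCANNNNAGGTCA or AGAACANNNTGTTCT, which lie in 0.422%, 0.0407%, 0.0148% and 0.0111% of all genes. Both strands were searched for every motif, and a match is a description of the letters in the window only. The windows of 3 genes named in the results are printed 5′ to 3′ in the sense of the gene, with the motif in capitals. Rarb (chr14:16575477-16575726, minus strand) is shown because its ratio differed between mother and fetus, and its retinoic acid repeat lies at bases -52 to -37. Nr6a1 (chr2:38784516-38784765, minus strand) had the lowest adjusted p in the fetus, and its capitals are AGGTCA read on the opposite strand, at -91 to -86 and -45 to -40. Rxrg (chr1:167618015-167618264, plus strand) had the largest level difference between maternal and fetal liver among these genes, and its AAAGGTCA lies at -90 to -83.
Rarb: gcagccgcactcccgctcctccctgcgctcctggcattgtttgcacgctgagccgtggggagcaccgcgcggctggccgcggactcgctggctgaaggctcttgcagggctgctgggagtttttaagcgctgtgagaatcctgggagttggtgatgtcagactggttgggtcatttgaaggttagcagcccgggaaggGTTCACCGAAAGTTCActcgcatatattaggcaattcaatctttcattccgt
Nr6a1: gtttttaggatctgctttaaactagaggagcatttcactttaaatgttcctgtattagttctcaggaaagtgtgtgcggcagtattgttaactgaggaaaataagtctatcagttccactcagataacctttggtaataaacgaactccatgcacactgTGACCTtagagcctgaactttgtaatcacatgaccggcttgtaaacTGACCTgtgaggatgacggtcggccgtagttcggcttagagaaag
Rxrg: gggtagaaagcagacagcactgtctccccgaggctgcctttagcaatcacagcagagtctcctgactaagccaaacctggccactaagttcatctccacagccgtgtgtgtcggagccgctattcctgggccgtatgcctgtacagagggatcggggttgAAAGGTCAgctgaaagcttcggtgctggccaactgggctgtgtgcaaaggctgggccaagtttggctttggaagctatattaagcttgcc

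A probe counted as above background where the image software marked it well above background. Of the 38 genes, 33 passed the filter for the fetal, the difference and the level tests. Each of the 33 was above background in both diets on all 8 arrays with the probe used, and none was let in by 1 diet alone. The other 5 were Vdr (the vitamin D receptor), Nr2f1 (COUP-TFI), Nr4a3 (Nor1), Rorb (RORβ) and Rara (retinoic acid receptor α). In the control channel, the brightest probe of Vdr and that of Nr2f1 were each above background on 0 of 2 maternal and 5 of 6 fetal arrays. The brightest Rara probe was above background on 1 of 2 maternal and 5 of 6 fetal control channels. It passed the maternal filter through the FR channel, with maternal ratios of 0.04 and 0.13, which makes 34 genes there. Nr4a3 was above background on 0 of 2 maternal and 1 of 6 fetal control channels, and Rorb on 0 of 2 and 2 of 6.

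In fetal liver, restriction of the mother was accompanied by higher levels of the xenobiotic sensor Nr1i2 and the orphan receptor Nr6a1 and by lower levels of the oxysterol receptor Nr1h3 and several orphan receptors. Of the 33 genes tested, 14 passed limma's moderated test at an adjusted p of 0.05, 4 higher and 10 lower in FR. Across all 21097 genes tested 25.6% passed, 11.4% higher and 14.2% lower. The median ratio was -0.04 over the 33 genes and 0.01 over all genes. The same sign in the 3 pool pairs, which a pass largely requires, was seen in all 14 and in 24 of the 33. Its share among all genes was not counted. The changes were small: the 14 ratios ran between -0.64 and 0.71. The plot of responses by gene shows every pool pair.

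**Figure D1:**
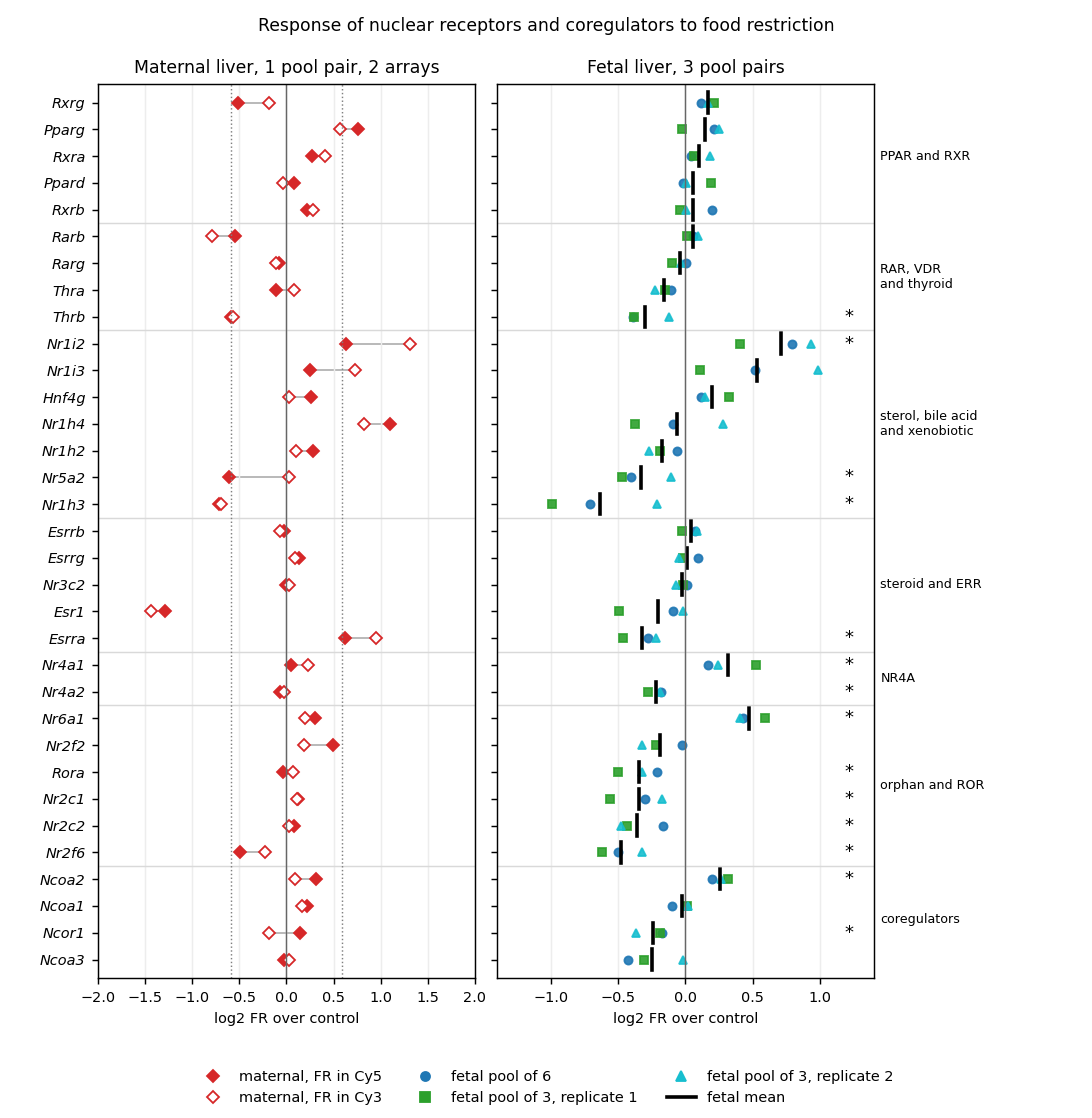
Log2 ratio of FR over control (x axes) for the 33 genes above background, grouped by role. Left, the 2 arrays of the maternal pool pair, with dotted lines at 1.5-fold; right, the 3 fetal pool pairs, with their mean as a bar and an asterisk where limma's adjusted p was under 0.05. Nr1i2 was above 0 in every fetal and maternal value, Nr1h3 was below 0 in every one, and Esrra was above 0 in the mother and below 0 in the fetus.

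Among the sensors of xenobiotics, sterols and bile acids, Nr1i2 rose and Nr1h3 and Nr5a2 fell in fetal liver. Nr1i2 encodes PXR, which turns on drug-metabolising enzymes. Its level was 10.61, 10.83 and 11.20 in the FR pool of 6 and the FR pools of 3, against 9.82, 10.43 and 10.27 in the control pools of the same pairs. The ratios were 0.79, 0.40 and 0.94, a mean of 0.71 ± 0.28 (SD, n = 3) or 1.64-fold (limma adjusted p = 0.0138). Every FR pool lay above every control pool. Nr1i3 encodes CAR, the partner sensor that shares many targets with PXR. Its ratios of 0.51, 0.11 and 0.99 had a mean of 0.54 ± 0.44 (SD, n = 3) and did not pass (limma adjusted p = 0.0723).

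Nr1h3 encodes LXRα, the oxysterol receptor that turns on lipid synthesis and cholesterol export genes. Its level was 10.33, 9.89 and 10.65 in FR fetal pools, against 11.03, 10.88 and 10.86 in control fetal pools. The FR pools were all below the control pools, and the second pool of 3 moved least, with ratios of -0.71, -0.99 and -0.21. The mean ratio was -0.64 ± 0.39 (SD, n = 3; limma adjusted p = 0.0370). Its relative Nr1h2 (LXRβ) had a mean ratio of -0.17 and did not pass. Nr5a2 encodes LRH-1, which drives bile acid synthesis genes, and it fell with ratios of -0.41, -0.47 and -0.11 (mean -0.33, limma adjusted p = 0.0434). The bile acid receptor FXR, encoded by Nr1h4, had ratios of -0.09, -0.38 and 0.28, which differ in sign (limma adjusted p = 0.756). Hnf4g, a hepatocyte nuclear factor, had a mean ratio of 0.19 and did not pass.

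The orphan receptors and RORα held 5 of the 14 calls, 1 higher and 4 lower of the 6 tested. Nr6a1 encodes GCNF, a repressor known from germ cells and early embryos. Its level was 8.34, 8.41 and 8.07 in FR fetal pools, against 7.92, 7.82 and 7.66 in control fetal pools, with no overlap between diets. The ratios of 0.43, 0.59 and 0.40 gave a mean of 0.47 ± 0.10 (SD, n = 3; limma adjusted p = 0.00891), the lowest adjusted p among these genes. Nr2f6 (EAR2), a repressor related to the COUP factors, fell at a level of 12.44, 12.28 and 12.62 in FR fetal pools, against 12.94, 12.90 and 12.94 in control fetal pools. Its mean ratio was -0.48 ± 0.15 (SD, n = 3; limma adjusted p = 0.0121), and the diets did not overlap.

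The testicular receptors TR2 and TR4, encoded by Nr2c1 and Nr2c2, are known as regulators of embryonic and fetal globin genes in the erythroid lineage. Nr2c1 fell with ratios of -0.30, -0.56 and -0.17 (mean -0.35, limma adjusted p = 0.0402). Nr2c2 fell with ratios of -0.17, -0.43 and -0.48 (mean -0.36, limma adjusted p = 0.0272). Rora, which encodes the clock and lipid regulator RORα, fell with ratios of -0.21, -0.50 and -0.32 (mean -0.34, limma adjusted p = 0.0236). Nr2f2 (COUP-TFII) had a mean ratio of -0.19 and did not pass. Beside these receptors, 1 of 7 erythroid markers fell and none rose, and their summed level was 18.17 to 18.54 in FR fetal pools, against 17.75 to 18.20 in control fetal pools. Within pairs the sum changed by 0.57 in the pair of 6 and by 0.65 and -0.03 in the pairs of 3. The part of erythroid cells in the receptor ratios was not tested.

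Of the thyroid hormone and retinoid receptors, only Thrb passed. Thrb encodes TRβ, the main thyroid hormone receptor of hepatocytes, and fell with ratios of -0.39, -0.38 and -0.12 (mean -0.30, limma adjusted p = 0.0369). Thra, which encodes TRα, had ratios of -0.10, -0.15 and -0.22 and did not pass (limma adjusted p = 0.0658). Rarb and Rarg, both retinoic acid receptors, had mean ratios of 0.06 and -0.04. None of the 5 PPAR and RXR genes passed, with mean ratios between 0.06 in Rxrb and 0.17 in Rxrg.

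Of the steroid and estrogen-related receptors, Esrra alone passed in the fetus. Esrra encodes ERRα, which works with PGC-1 coactivators on mitochondrial genes. Its level was 10.29, 10.51 and 10.71 in FR fetal pools, against 10.57, 10.98 and 10.92 in control fetal pools. Each FR pool was below its own control pool, although the groups overlapped, and the mean ratio was -0.32 ± 0.13 (SD, n = 3; limma adjusted p = 0.0242). Esrrb and Esrrg, its relatives, and Nr3c2, the mineralocorticoid receptor, had mean ratios between -0.03 and 0.04. Esr1, the estrogen receptor α, had fetal ratios of -0.09, -0.50 and -0.02 and did not pass.

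The immediate early receptors of the NR4A family moved in opposite directions. Their calls were not stable: of 13 alternative settings, Nr4a1 stayed called under 6 and Nr4a2 under 8. Nr4a1 (Nur77) rose with ratios of 0.17, 0.53 and 0.24 (mean 0.31, limma adjusted p = 0.0469). Nr4a2 (Nurr1) fell with ratios of -0.18, -0.28 and -0.19 (mean -0.22, limma adjusted p = 0.0293), at levels of 6.98 to 7.04 in FR fetal pools, against 7.18 to 7.25 in control fetal pools. Of the coregulators, the coactivator Ncoa2 rose with ratios of 0.20, 0.32 and 0.27 (mean 0.26, limma adjusted p = 0.0201). The corepressor Ncor1, which carries histone deacetylase complexes to unliganded receptors, fell with ratios of -0.17, -0.19 and -0.37 (mean -0.24, limma adjusted p = 0.0397). The coactivators Ncoa1 and Ncoa3 had mean ratios of -0.02 and -0.25 and did not pass.

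The calls depended on which pool pairs entered, most on the fetal pair of 6 and least on the second fetal pair of 3. Without the fetal pair of 6, which was the only fetal pair on slide 1, limma called 0 of the 33 genes and 52 of all genes, with 17 of the 33 and 6143 of all genes at an unadjusted p under 0.05. Without the first fetal pair of 3 it called 4, of which 3 were among the 14, and without the second 11, of which 10 were. With spots that the software marked non-uniform left out, 5 of the 14 were called: Nr1i2 and Nr6a1 higher, and Rora, Nr2c2 and Nr4a2 lower. With the ratios of the arrays scaled to a common spread it called 0 of the 33 and 0 of all genes, with 19 of the 33 and 7240 of all genes at an unadjusted p under 0.05. No fetal call changed its sign under any alternative run.

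Targets of these receptors were counted from lists of known target genes, and the retinoid and vitamin D lists also hold metabolism and transport genes. The lists were chosen with earlier results of these data known and were not tested as lists. Of all genes, 11.4% rose and 14.2% fell in FR fetal liver. Of 17 genes known as CAR and PXR targets, 9 rose and none fell, with a median ratio of 0.24. They were led by the drug-metabolising cytochromes P450 Cyp3a11 (1.08), Cyp2b9 (0.73) and Cyp2b13 (0.62). Cyp3a11 was uneven among the pairs, with ratios of 1.33, 0.21 and 1.70 and a limma adjusted p of 0.0497. The Cyp2b genes are near-identical, as are those of the Cyp3a family, so a probe may read more than 1 of them. Of 11 genes known as LXR targets, 7 fell and 2 rose, with a median of -0.33. The fatty acid desaturases Scd2 (-1.55) and Scd1 (-1.33) fell and the sterol exporter Abcg5 (0.66) rose. The median of all genes was 0.01.

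The other target lists went both ways in the fetus. Of 18 PPAR targets, 7 rose and 7 fell, with the lipase inhibitor Angptl4 at 1.05. Of 13 genes of retinoid metabolism and response, 5 rose and 5 fell, including the retinoic acid degrading enzyme Cyp26b1 at 1.07, the retinol esterifying enzyme Lrat at -0.96 and Rarres1 at 0.76. Of 12 FXR and LRH-1 targets, 2 rose and 2 fell, with the bile acid exporter subunit Slc51b at 1.29 and the bile acid synthesis and conjugation enzymes Cyp8b1 at -1.19 and Baat at -0.92. Of 8 thyroid hormone targets, 2 rose (G6pc 0.88, Klf9 0.82) and 1 fell (Me1 -0.67). Of 5 genes of vitamin D metabolism and response 1 fell (Cyp2r1 -0.39).

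Receptors and coregulators outside the 38 were counted in the same way. Of 8 other receptors tested in the fetus, 2 rose and 2 fell, with the clock repressor Nr1d2 at 1.36 and Ppara, the fatty acid sensor, at -0.40. Of 21 other coregulators, 3 rose and 4 fell, with the coactivator Ppargc1a at 0.61, Ncoa7 at -0.57 and the corepressor Nrip1 at 0.46. Of the hepatocyte markers 5 of 7 fell (median -0.45), of B lineage markers 6 of 8 (median -0.81), of granulocyte markers 7 of 9 (median -0.59), of endothelial markers 4 of 9 and of bile duct markers 3 of 7. Of 9 Kupffer cell markers 3 fell and 1 rose, and of 9 stellate and mesenchymal markers 2 fell. The summed B lineage level was 12.81 to 13.42 in FR fetal pools, against 14.05 to 14.12 in control fetal pools, and the granulocyte sum was 18.06 to 18.21 in FR fetal pools, against 18.82 to 18.86 in control fetal pools. The part of these cells in the receptor ratios was not tested.

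In maternal liver, FR was accompanied by higher Nr1h4, Nr1i2 and Esrra and by lower Esr1 and Nr1h3. With 1 pool pair there is no replicate check and no test, and a gene was counted where both arrays of the dye exchange were past 1.5-fold in the same direction. Of 34 genes, 5 were past it, 3 higher and 2 lower. Across all 19507 genes 6.88% were past it, 3.00% higher and 3.88% lower. The median maternal ratio was 0.07 over the 34 genes and 0.00 over all genes (0.00343 before rounding).

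Esr1, the estrogen receptor α, had the largest ratio, with a level of 9.20 in the FR maternal pool, against 10.56 in the control maternal pool. Its ratios were -1.29 with FR in Cy5 and -1.44 with FR in Cy3, and it alone was past 2-fold on both arrays. Nr1h4, which encodes the bile acid receptor FXR, had a level of 13.71 in the FR maternal pool, against 12.75 in the control maternal pool, with ratios of 1.098 and 0.82. Nr1i2 (PXR) had ratios of 0.63 and 1.32, which agree in sign and differ in size between the dye orientations. Esrra (ERRα) had ratios of 0.62 and 0.95, and Nr1h3 (LXRα) had ratios of -0.71 and -0.70. Nr1i2 and Nr1h3 had the same sign in the maternal pair as in each fetal pair.

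Just short of 1.5-fold, a log2 ratio of 0.58, were Pparg (0.76 and 0.57), Thrb (-0.59 and -0.57) and Rarb (-0.55 and -0.79). Pparg encodes the adipogenic fatty acid sensor PPARγ. With spots marked non-uniform left out, 14404 of all genes had a value, and of the 5 genes past 1.5-fold only Esr1 (-1.37) was among them and stayed past it. In all, 2 of the 38 genes were past 1.5-fold in that setting, 1 higher and 1 lower. Without loess 0 were past it, and with a background offset of 10, 8. Without loess 332 of all genes were past it. With the deposited ratios, Nr1h4 and Nr1h3 were no longer past 1.5-fold on both arrays. With the spot median in place of the mean on slide 1, Esrra and Nr1h3 were not. Esrra also fell short with the median over probes.

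Among the maternal target lists, 5 of 17 CAR and PXR targets were past 1.5-fold and higher, and none was past it and lower. Of the cytochromes named for the fetus, Cyp3a11 differed in sign between the maternal arrays (0.98 and -1.34). Cyp2b9 (-0.45 and -1.06) and Cyp2b13 (-0.47 and -0.33) were below 0 on both. The estrogen sulfotransferase Sult1e1 had ratios of 2.32 and 2.89, and Por, the electron donor of the cytochromes P450, had 2.37 and 1.38. Of 11 LXR targets Scd1 was lower (-2.23 and -2.37) and Abcg5 higher (1.16 and 1.79). Of 18 PPAR targets 4 were higher and 4 lower, led by Cyp4a14 (3.54 and 2.32) and Angptl4 (1.89 and 1.94). Of 11 FXR and LRH-1 targets 1 was higher and 2 lower, led by the bile salt export pump gene Abcb11 (-1.18 and -1.30) and Cyp7a1, the rate-limiting enzyme of bile acid synthesis (-1.24 and -0.71).

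Of 7 thyroid hormone targets 1 was higher and 2 lower, led by Dio1, the enzyme that activates thyroid hormone (-1.57 and -1.29), and Klf9 (0.89 and 1.12). Of 13 retinoid genes 1 was higher, Cyp26b1 (1.59 and 1.02), and 1 lower, Rarres1 (-0.89 and -0.98). Of 4 genes of vitamin D metabolism and response none was past 1.5-fold. Among 21 other coregulators 3 were higher, led by the PGC-1 coactivators Ppargc1b (1.85 and 2.15) and Ppargc1a (1.32 and 1.15). Of 9 other receptors 1 was higher, Nr1d2 (1.68 and 1.84). Of 9 stellate and mesenchymal markers 3 were lower (median -0.70), and of 9 Kupffer cell markers 2 were lower (median -0.54). Of 4 erythroid markers 1 was higher and 2 lower (median -0.47). Hepatocyte (of 7, median -0.37), granulocyte (of 6, median -0.04), endothelial (of 9, median -0.19) and bile duct markers (of 7, median -0.10) had 1 lower each and none higher, and of 6 B lineage markers none was past it. The hepatocyte markers other than Ttr (-0.70 and -0.63) changed sign between the dye orientations, as Alb did (1.08 and -1.08), so their median averages opposite readings. The part of those cells was not tested.

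**Figure D2:**
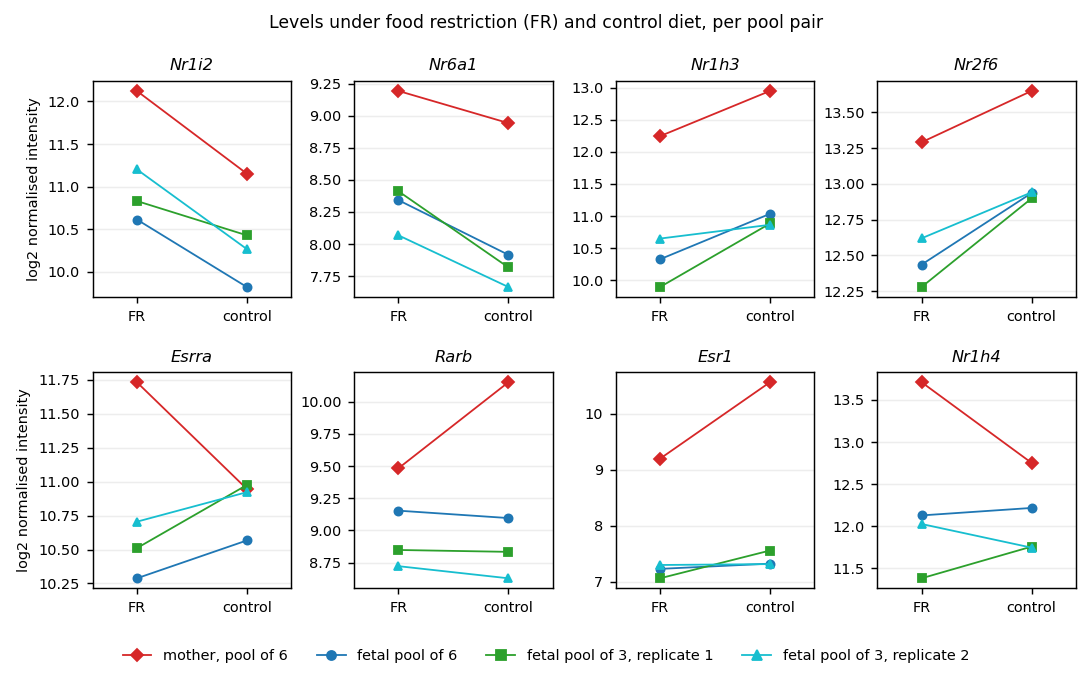
Log2 normalised intensity (y axes, a separate scale for each gene) of 8 genes under FR and control diet, with 1 line for each pool pair. The maternal FR point lies above its control point in Nr1i2, Nr6a1, Esrra and Nr1h4 and below it in Nr1h3, Nr2f6, Rarb and Esr1, and the fetal lines of Rarb are nearly flat.

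The maternal and fetal responses differed in 2 of the 33 genes, Esrra and Rarb, by limma's test of the difference itself, 1 higher and 1 lower, against 4.18% of all 18969 genes tested, 2.05% higher and 2.12% lower. The lone maternal pair is assumed in that test to vary like the fetal pairs. Esrra was higher in FR in the mother, with a level of 11.73 in the FR maternal pool, against 10.95 in the control maternal pool, and it fell in the fetus. Its maternal ratio of 0.79 minus the fetal mean of -0.32 gave 1.11 ± 0.13 (SE; adjusted p = 0.0221). Rarb, a retinoic acid receptor gene that retinoic acid itself turns on, had a level of 9.48 in the FR maternal pool, against 10.15 in the control maternal pool. In the fetus its level was 9.15, 8.85 and 8.72 in FR pools, against 9.10, 8.83 and 8.63 in control pools. The maternal ratio was -0.67 and the fetal ratios were 0.06, 0.01 and 0.09, a difference of -0.72 ± 0.09 (SE; limma adjusted p = 0.0271).

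Within slide 1, which holds both tissues, the differences were of the same size, 1.07 for Esrra and -0.73 for Rarb. The fit with slide as a term called 0 of the 33 genes and 0 of all genes, with limma adjusted p = 0.190 for Esrra and 0.218 for Rarb, and with 5 of the 33 and 2428 of all genes at an unadjusted p under 0.05. Without the fetal pair of 6 it also called 0 of the 33 and 0 of all genes, with 10 of the 33 and 3196 of all genes at an unadjusted p under 0.05. Esr1 and Nr1h4, with differences of -1.17 and 1.02, missed the threshold (limma adjusted p = 0.0526 and 0.100). They were called without the second fetal pair of 3, where 4 genes passed. Rxrg (-0.52) also missed it, at an adjusted p of 0.0543 by limma.

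Under control diet, Rxrg, the xenobiotic sensor Nr1i3 and the estrogen receptor gene Esr1 stood higher by over 3 log2 units in maternal than in fetal liver, and Thra stood lower. Of the 33 genes, 17 differed by limma, 16 higher and 1 lower in the mother, against 42.9% of all 20854 genes, 20.4% higher and 22.5% lower. The split depends on the scaling: without the Aquantile step, which gives all arrays 1 intensity distribution, 20 genes were called, 5 higher and 15 lower in the mother. That scaling moved the median of all genes to -0.99, from -0.01 with the step, so levels are also given against that median. Above the median of all genes lay 27 of the 33 genes with the step and 25 without it. The maternal arm is 1 pool and stands on slide 1 with 1 fetal pool, so each gene's own spread comes from the fetal pools of 3 on slide 2, and the maternal pool is assumed to vary like them. Stage, sex and pregnancy differ together between mother and fetus and cannot be told apart.

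The 3 largest differences were in Rxrg, Nr1i3 and Esr1. Rxrg, the RXRγ subtype with the AAAGGTCA match, had a level of 10.43 in the control maternal pool, against 6.87, 6.77 and 6.81 in the control fetal pools of 6 and of 3. The difference within slide 1 was 3.56 ± 0.11 (SE), 11.8-fold (limma adjusted p = 0.00165). Nr1i3 (CAR) had a level of 12.10 in the control maternal pool, against 8.85, 8.82 and 8.57 in control fetal pools, a difference of 3.25 ± 0.18 (SE; limma adjusted p = 0.00298). Esr1 had a level of 10.56 in the control maternal pool, against 7.32, 7.55 and 7.31 in control fetal pools, a difference of 3.24 ± 0.17 (SE; limma adjusted p = 0.00285). In all 3 genes the maternal pool lay far above every fetal pool, and they stayed called and higher under the 9 alternatives run. Over those alternatives the difference ran between 2.40 and 5.56 for Rxrg, 2.46 and 4.03 for Nr1i3, and 1.76 and 4.41 for Esr1.

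Next in order came Nr1h3 (1.91), Nr5a2 (1.83), Nr1i2 (1.33), Thrb (1.27), Rarb (1.05) and Nr6a1 (1.03), with limma adjusted p between 0.00311 and 0.0163. The other 7 genes called higher in the mother were Rora, Nr2f6, Rxra, Pparg, Nr2f2, Ncoa1 and Nr1h4, with differences from 0.54 in Nr1h4 to 0.77 in Rora. The standard errors of neighbours among those 7 overlap. Hnf4g had a difference of 0.78 ± 0.31 (SE) and did not pass.

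At the other end, Thra, which encodes TRα, was the only gene called lower in the mother. Its level was 10.39 in the control maternal pool, against 11.29, 11.65 and 11.61 in control fetal pools, a difference of -0.90 ± 0.11 (SE; limma adjusted p = 0.0112). The 2 thyroid hormone receptor genes thus differed in opposite directions, Thrb higher and Thra lower in the mother. Without the Aquantile step Thra was again called lower and Thrb was not called. Nr4a1 had 8.91 in the control maternal pool, against 9.38, 9.21 and 9.34 in control fetal pools (difference -0.47, limma adjusted p = 0.0622). Ncoa3 had 9.74 in the control maternal pool, against 10.10, 9.72 and 9.76 in control fetal pools (difference -0.36, limma adjusted p = 0.0777), and its sign turned with 2 alternatives.

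**Figure D3:**
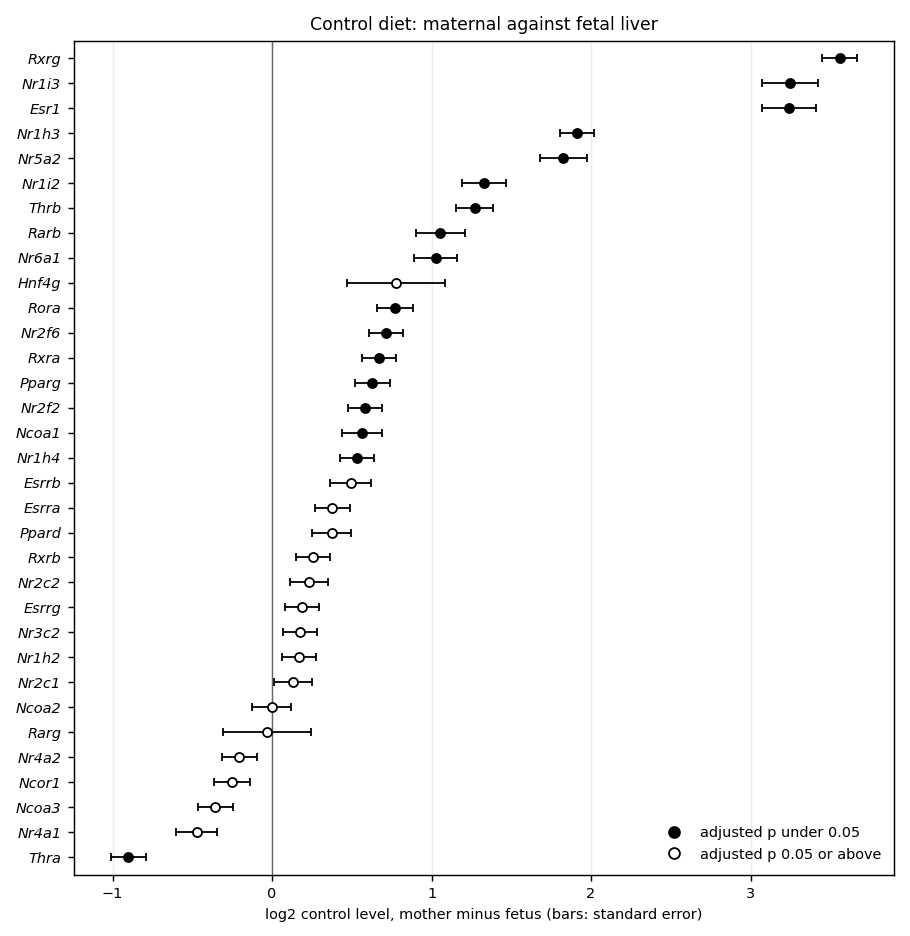
Difference in log2 level between the control maternal pool and the control fetal pools (x axis; mother minus fetus, bars are standard errors) for the 33 genes, with filled points where limma's adjusted p was under 0.05. Rxrg, Nr1i3 and Esr1 stand apart at 3.56, 3.25 and 3.24, and Thra at -0.90 is the only filled point below 0.

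Cell type markers also differed between maternal and fetal liver under control diet. All 7 erythroid markers tested were lower in the mother (median -6.57), as were all 9 granulocyte markers (median -7.62) and 7 of 8 B lineage markers (median -2.17), while of 7 hepatocyte markers 1 was higher and 1 lower (median 0.16). In the mother 4 of the 7 erythroid and 6 of the 9 granulocyte markers were above background on every control channel, against all 7 and all 9 in the fetus. The summed erythroid level was 14.68 in the control maternal pool, against 17.75 to 18.20 in control fetal pools. Median differences were -0.53 for Kupffer cell, -0.45 for stellate and mesenchymal, -0.55 for bile duct and -0.13 for endothelial markers. The part of all these cells in the receptor levels was not tested. Against the 20.4% of all genes higher and 22.5% lower in the mother, 15 of 17 CAR and PXR targets (median 2.22), 9 of 11 FXR and LRH-1 targets (median 1.81) and 6 of 8 thyroid hormone targets (median 1.60) were higher and none was lower. Of 5 genes of vitamin D metabolism and response 3 were higher and none lower (median 0.71). Of 18 PPAR targets 12 were higher and 3 lower (median 1.13), and of 13 retinoid genes 9 were higher and 1 lower (median 1.31). Of 11 LXR targets 4 were higher and 5 lower (median -0.48). Of 9 other receptors 6 were higher and none lower (median 1.09), and of 21 other coregulators 1 was higher and 6 lower (median -0.28).

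Where a gene had several probes, the brightest was used, and 19 of the 38 genes had 1 probe only. The 3 probes of Nr2c1 had fetal ratios of -0.35, -0.26 and -0.25. Of the 3 Rora probes, the brighter pair had -0.34 and -0.35 and the dimmest -0.05. The 6 Ncor1 probes split into 3 bright ones at -0.24, -0.17 and -0.32 and 3 dim ones at 0.04, 0.05 and 0.01. Ncor1 was not called with the median over probes (limma adjusted p = 0.187).

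Probes of other genes also differed. The second Nr2c2 probe had a fetal ratio of -0.04, against -0.36 for the probe used. Nr2c2 was not called with the median over probes (limma adjusted p = 0.0804). The 3 Ncoa2 probes had fetal ratios of 0.26, 0.33 and 0.0023, and Ncoa2 was not called with the median over probes (limma adjusted p = 0.071). The 4 Thrb probes had fetal ratios of -0.30, -0.15, 0.09 and -0.00023, and maternal ratios of -0.58, -0.43, -0.05 and -0.02. The second Esr1 probe, above background in the control mother, had a maternal ratio of -0.10 and a maternal minus fetal level difference of 0.28, so both Esr1 results rest on 1 probe. That probe lies at chr10:5343056-5343115 and the second at chr10:5345046-5345105 in the slide 1 annotation (mm9). The second Esrra probe had a maternal ratio of 0.47 and a fetal mean of -0.16, the same signs as the probe used. The second Rarb probe was above background on 0 of 2 maternal control channels and gives no reading there.

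**Figure D4:**
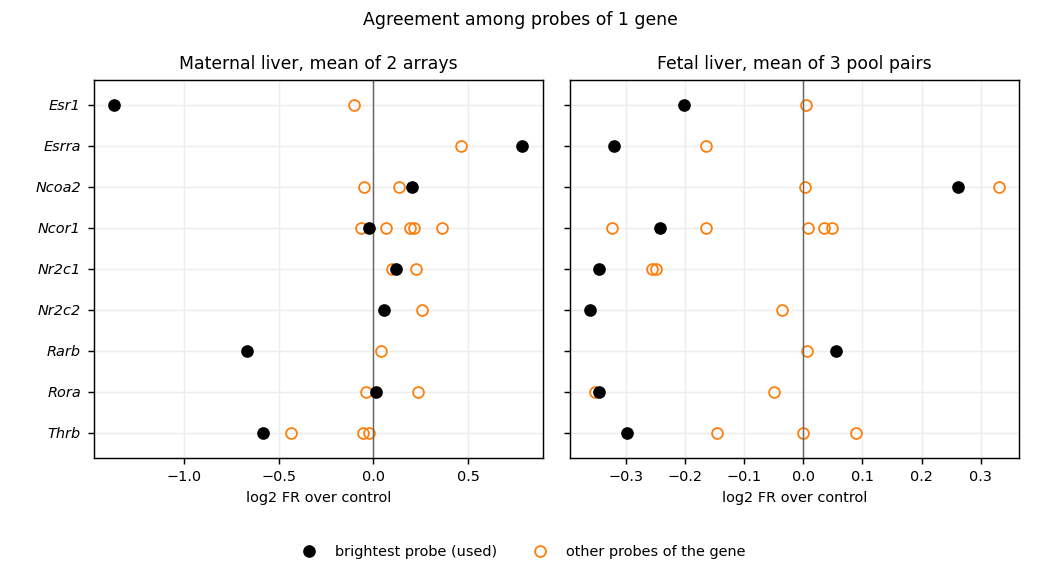
Log2 ratio of FR over control (x axes) for every probe of 9 genes with more than 1 probe, in maternal liver (left) and fetal liver (right), with the brightest probe filled. The probes of Nr2c1 lie together on the fetal side, while those of Esr1 on the maternal side and of Thrb on both sides spread to 0.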

How the data were processed

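Total RNA from liver pools (1000 ng, dye-labelled with a linear amplification kit, per the labels' protocols) was hybridised to 60-base whole-genome arrays. The authors deposited spot and background intensity per channel for each array, and log10 ratios of Cy5 over Cy3 from processed signals, which the scanner files gave within 5e-08; per the file headers the images were read with Feature Extraction 9.5.3.1 (slide 1) and 11.0.1.1 (slide 2), the first of which the submitters' processing notes also name. The deposited flags, a further per-spot column with values of 0 or 1, gave saturation, outliers and signals well above background. Titles, not the description text, which also names rat hippocampi, set the pools; the dyes in the titles set the direction of each ratio.

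Spot intensities (mean on slide 1, median on slide 2) were corrected with normexp (offset 50) and loess in limma 3.58.1 (R 4.3.3), turned to FR over control and averaged over each dye exchange. Control spots had no weight, outlier spots were left out and non-uniform spots were kept. A probe entered if the channel of at least 1 diet was marked well above background throughout the arrays of a fit, and the brightest passing probe stood for a gene. Levels were Aquantile-normalised single channels, fitted with slide as a term. Tests were limma's moderated tests with Benjamini-Hochberg adjustment over all genes at 0.05. The fits were checked on simulated data. The precision is limited by the number of arrays: 3 fetal pairs and 1 maternal pair.

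Members and gene lists were chosen with earlier results of these data known. By rule, values per pool are given for members that passed the fetal or difference test, those past 1.5-fold on both maternal arrays, and the 3 highest and 3 lowest level differences, and up to 3 fetal and 2 maternal genes are named per list. Some genes that this rule would name are not reported here. Alternatives changed the offset, signal, normalisation, spot and probe filters, probe choice, pool reading, slide term and pool pairs entering; the spot median on slide 1 was added after seeing the data. Probes were named by accession (26918), symbol (5082) or older symbol (817) through RefSeq, and 8357 kept the file's name.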

Additional observations from a re-analysis of the deposited data

Results flagged for a closer look

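The difference between the maternal and the fetal response passed limma's test in 2 of the 33 genes tested. Esrra had a difference of 1.11 (mother minus fetus; limma adjusted p = 0.0221), with 1 maternal pool pair above 0 and 3 of 3 fetal pairs below 0. Rarb had a difference of -0.72 (limma adjusted p = 0.0271), with 1 maternal pool pair below 0 and 3 of 3 fetal pairs slightly above 0. Both differences rest on the single maternal pair. No group held the 4 samples needed to look for a sample far from the others.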

How the results depend on the processing

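No paired analysis was possible because the labels tie no maternal pool to a fetal pool, so mother and fetus share fewer than 2 replicate numbers. FR and control pools are already paired within each array. Fetal calls, 14 of the members and 5404 of all genes, became 2973 genes without loess, 0 members and 0 genes with ratios scaled between arrays (limma; 19 members and 7240 genes at an unadjusted p under 0.05), 5 members and 3212 genes with non-uniform spots left out, and 8536 genes with each array as its own pool pair. With 1 fetal pair left out they ranged from 0 to 11 members and from 52 to 5127 genes. The difference between responses, 2 members and 792 genes, became 1647 genes with the deposited ratios, 1 member and 225 genes without loess, 0 members and 92 genes with scaling, 0 members and 229 genes with non-uniform spots left out (8 members at an unadjusted p under 0.05, with 25 members testable), and 0 members and 0 genes with slide as a term (limma; 5 members and 2428 genes at an unadjusted p under 0.05). With 1 fetal pair left out it ranged from 0 to 4 members and from 0 to 1124 genes. Level calls, 8941 genes, became 14094 without Aquantile (1130 higher) and 5368 from the FR channel, and member calls stayed between 12 and 20. Maternal genes past 1.5-fold, 5 members and 1342 genes, became 8 members with an offset of 10, 2349 genes with the deposited ratios, 0 members and 332 genes without loess, 2 members and 792 genes with non-uniform spots left out (14404 genes testable), 3 members with the spot median on slide 1 (chosen after seeing the data), and 1 member and 425 genes at 2-fold. The level difference of Ncoa3 turned to 0.08 with the median over probes (0.08014 before rounding) and likewise with the FR channel (0.07646). The cause was not tested in any of these. Among the 182 single-gene fetal alternatives 119 kept the call, 63 lost it and 0 reversed. Nr1i2 and Nr6a1 were the most stable and lost theirs under 2 of 13, the scaling and the absence of the fetal pair of 6, at adjusted p up to 0.0989 and 0.0713 by limma. The least stable were Ncor1, kept under 5 of 13, Nr4a1, kept under 6, and Ncoa2, kept under 7. The remaining fetal calls were kept under 8 to 10 of 13. Non-uniform marks cover 81.5% to 89.9% of the brightest 10% of spots on slide 1, so leaving them out removes bright genes there. A random slide block could not be fitted with 3 pairs, and leaving out pools from the level fit was not run because it keeps no residual degrees of freedom. Signal over background limits Vdr, Nr2f1, Nr4a3, Rorb and Rara.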
